A study of Mus musculus with 29 samples.

Results

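The comparison set NMM melanoma cells from which TGFβ had been washed away against NMM cells that still had it. NMM is a mouse melanoma line with mutant NRAS, and TGFβ (transforming growth factor beta) is a cytokine. The libraries were chosen by the order of their stimuli in the labels and make up 8 of the 29 mRNA libraries of the study. In the 4 withdrawn libraries, TGFβ (10 ng/ml) was given for 2, 6, 12 or 24 h, the cells were washed 5 times with PBS, and 24 h in medium followed. In the 4 present libraries the cells spent 2, 6, 12 or 24 h in medium, were washed likewise, and were then kept for 24 h with TGFβ at 10 ng/ml until harvest. The duration of the first step pairs the libraries, 1 withdrawn with 1 present at each duration. The arms therefore differ in how long TGFβ was given as well as in whether it was there at harvest, except at 24 h, where both had it for 24 h. Reference groups of 4 libraries each had the same 4 durations. They were medium followed by medium, interferon gamma (IFNγ, 100 ng/ml) followed by medium, medium followed by IFNγ, IFNγ followed by TGFβ, and TGFβ followed by IFNγ. A single further library had 24 h in medium and then 24 h with IFNγ (100 ng/ml) and TGFβ (10 ng/ml) together. All cells were of 1 line, grown in 10% fetal calf serum, a source of growth factors of its own, and no isoform of TGFβ is named in the labels. No label says that the libraries came from separate cultures, so p-values measure no more than how these samples vary, and that variation may be technical.

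TGFβ binds a pair of receptor kinases that phosphorylate SMAD2 and SMAD3. These join SMAD4, enter the nucleus and drive 2 kinds of target: fast genes that follow the signal itself, among them inhibitors such as Smad7 that shut the pathway off, and slower genes of matrix, adhesion and cell shape. In melanoma TGFβ is known for slowing melanocyte growth early, and later for invasion, matrix remodelling and immune evasion. The genes below are taken in that order: targets, feedback and early response genes, ligands and receptors, cell-state programmes, and the interferon-type genes that lie on the other arm of the study.

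To show the kind of regulatory sequence at the starts of the genes that stayed high without TGFβ, the 250 bases before the start of 3 of them, Itga2, Ctla2a and Tfpi2, are printed 5′ to 3′ on the gene's strand (RefSeq, GRCm38.p6). They were chosen after their values were seen, and they hold matches in capitals to the SMAD-binding hexamer CAGACA (or TGTCTG on the opposite strand) or to the AP-1 element TGANTCA. Itga2 lies at chr13:114932101-114932350, minus strand, with 1 hexamer beginning 147 bases before the start. Ctla2a lies at chr13:60936626-60936875, minus strand, with hexamers beginning 180 and 83 bases and an AP-1 element beginning 129 bases before the start. Tfpi2 lies at chr6:3988859-3989108, minus strand, with 1 hexamer beginning 37 bases before the start.
Itga2: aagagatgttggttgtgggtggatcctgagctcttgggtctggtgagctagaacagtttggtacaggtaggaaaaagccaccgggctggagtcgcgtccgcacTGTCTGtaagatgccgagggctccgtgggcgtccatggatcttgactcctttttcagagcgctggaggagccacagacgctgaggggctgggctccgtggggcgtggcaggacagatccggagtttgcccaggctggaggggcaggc
Ctla2a: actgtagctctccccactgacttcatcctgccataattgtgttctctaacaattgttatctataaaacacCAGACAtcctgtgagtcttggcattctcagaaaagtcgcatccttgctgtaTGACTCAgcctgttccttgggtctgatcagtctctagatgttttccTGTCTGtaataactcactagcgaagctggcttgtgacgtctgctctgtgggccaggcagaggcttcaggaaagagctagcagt
Tfpi2: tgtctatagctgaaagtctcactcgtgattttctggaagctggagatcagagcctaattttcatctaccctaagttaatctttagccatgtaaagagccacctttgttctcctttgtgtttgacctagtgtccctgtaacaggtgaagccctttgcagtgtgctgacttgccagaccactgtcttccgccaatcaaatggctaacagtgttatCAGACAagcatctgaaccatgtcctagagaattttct
Such matches are common. In windows of 300 bases, from 250 before to 50 after the start, CAGACA was found on either strand in 21.2% of 401 promoters of TGFβ-raised genes (defined below) and in 21.4% of 407 promoters of TGFβ-lowered genes. The share was 18.7% over 10069 promoters of tested genes and 23.6% over all 27025 in the table. The AP-1 element was found in 9.73% of the raised, 10.1% of the lowered, 6.45% of the tested and 8.97% of all promoters. The palindromic SMAD element GTCTAGAC was found in 1 of the 401, in 0 of the 407 and in 0.278% of the tested promoters, and the core of the interferon-stimulated element in 2.49%, 5.41% and 3.8% of the raised, lowered and tested promoters. The windows of Fbln2, Tnnt2 and Ggct, which also stayed above medium, held none of these motifs. Tfpi2 has 3 starts in the table, and the window of the one farthest downstream held an AP-1 element and no hexamer. A match is only a description of the letters in the window.

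Library totals of the 8 samples lay between 17269922 and 20475731 counts, within the range of 17179530 to 23668015 over all 29, and 14935 genes were tested. Of 8 melanocyte markers, Mlana, Tyr, Tyrp1 and Dct had no row in the table, Pmel was at 0.163 CPM (counts relative to the scaled library size, as edgeR's cpm gives them) on average in the withdrawn and 0.129 CPM in the present libraries, and Sox10 was at or near 0 likewise. Mitf was at 12.3 and 10.9 CPM and Gpnmb, a glycoprotein of melanosomes and lysosomes, at 50 and 67.3 CPM, against 187 CPM of Gpnmb in medium. Of the 8 markers 2 were thus expressed, and the pigment genes had no row or were near 0. Among 8 leukocyte markers, 4 had no row in the table and Ptprc and Csf1r were at or near 0 in both arms, while Cd14 and Cd68, which are not limited to leukocytes, were at 34.4 and 4.39 CPM in the withdrawn and 37.5 and 4.53 CPM in the present arm. Col3a1 and Dcn, known from fibroblasts, were at 400 and 92.9 CPM in the withdrawn and 413 and 96.6 CPM in the present arm. The medium library of 6 h stood apart from the other 3 medium libraries, at a root mean square (RMS) log2 distance of 0.448 to 0.496 over 9903 genes against 0.146 to 0.159 among those 3. Present libraries of 2 and 6 h stood apart from those of 12 and 24 h, by 0.329 to 0.422 against 0.177 and 0.228 within each pair, although all 4 had received TGFβ for 24 h. Withdrawn libraries split the same way, by 0.484 to 0.583 against 0.207 and 0.205.

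After 24 h without TGFβ no single gene could be told from its level with TGFβ still present at the adjusted threshold. With edgeR's quasi-likelihood test and Benjamini-Hochberg adjustment, 0 of 14935 genes (0%) passed an adjusted p of 0.05 for withdrawn against present, the lowest adjusted p being 0.0513. At an unadjusted p below 0.05, 547 genes (3.66%) were lower and 381 (2.55%) higher in the withdrawn arm. DESeq2 called 33 genes, 31 of them lower, and edgeR on the 8 libraries alone called 18, 15 of them lower. The 95% interval of the log2 difference lay within 1 log2 unit of 0, a 2-fold change either way, for 12328 genes (82.5%). For genes with a mean of at least 5 CPM it did so for 9716 of 9855 (98.6%), and within 0.5 for 9148 (92.8%). The difference exceeded 1 log2 unit in 250 genes, of which 1 had a mean of at least 5 CPM. Libraries of the same duration lay 0.158, 0.188, 0.204 and 0.379 apart (RMS log2) between the arms at 2, 6, 12 and 24 h. The present libraries lay 0.265, 0.503, 0.524 and 0.451 from their medium partners, and the withdrawn libraries 0.279, 0.523, 0.632 and 0.719. The withdrawn arm was thus at least as far from medium as the present arm at every duration, and the 24 h pair was the least alike of the 4. At 2, 6 and 12 h the medium libraries carry the numbers 26, 29 and 23 in their labels. These are near the numbers of the present libraries (25, 28 and 22) and far from those of the withdrawn ones (4, 8 and 12). At 24 h the medium library is number 17, between the withdrawn (16) and the present library (19). The part of label number (see the genes of lowest p) in the distances from medium was not tested. The slope of the difference with log2 duration passed the adjusted threshold in 0 genes (0%), with 452 (3.03%) at an unadjusted p below 0.05 and 1 call by DESeq2.

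Genes that respond to TGFβ were first taken from libraries outside this comparison. In cells that had received IFNγ before, TGFβ against medium raised 541 genes (3.62%) and lowered 543 (3.64%) at an adjusted p below 0.05 in edgeR, and without the duration factor that count of both was 488. Of the 541 raised genes, 466 were also higher in the present libraries than in medium (11.7% of all tested genes were called higher there, and 11.6% lower), and 440 in the withdrawn libraries (14.5% higher and 14.5% lower over all genes). Both of those comparisons use the same 4 medium libraries, and the limit on label numbers given above holds for their counts too. The median log2 change against medium was 0.459 with TGFβ present and 0.448 with TGFβ withdrawn, while the median of withdrawn minus present was 0.00831, against 0.00393 over all tested genes. In the pairs of 2, 6, 12 and 24 h that median was -0.00996, -0.0372, 0.012 and 0.0459. The interval lay within 1 log2 unit of 0 in 511 of the 541, against 82.5% of all tested genes. At an unadjusted p below 0.05, 32 were lower and 18 higher, against 3.66% and 2.55% of all tested genes. For the 543 lowered genes the medians against medium were -0.545 (444 called lower) and -0.574 (439 called lower), and the median of withdrawn minus present was -0.0342. Of these 543, 29 were lower and 18 higher at an unadjusted p below 0.05, against the same shares over all tested genes. The median of the lowered genes was 0.00901 without the withdrawn library of 24 h. Without the 6 h medium library that stood apart, 455 and 447 of the raised genes were called higher than medium with TGFβ present and withdrawn (medians 0.447 and 0.441), and 405 and 417 of the lowered genes lower (medians -0.459 and -0.502). TGFβ-raised and TGFβ-lowered genes thus sat at nearly the same distance from medium in both arms.

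**Figure D1:**
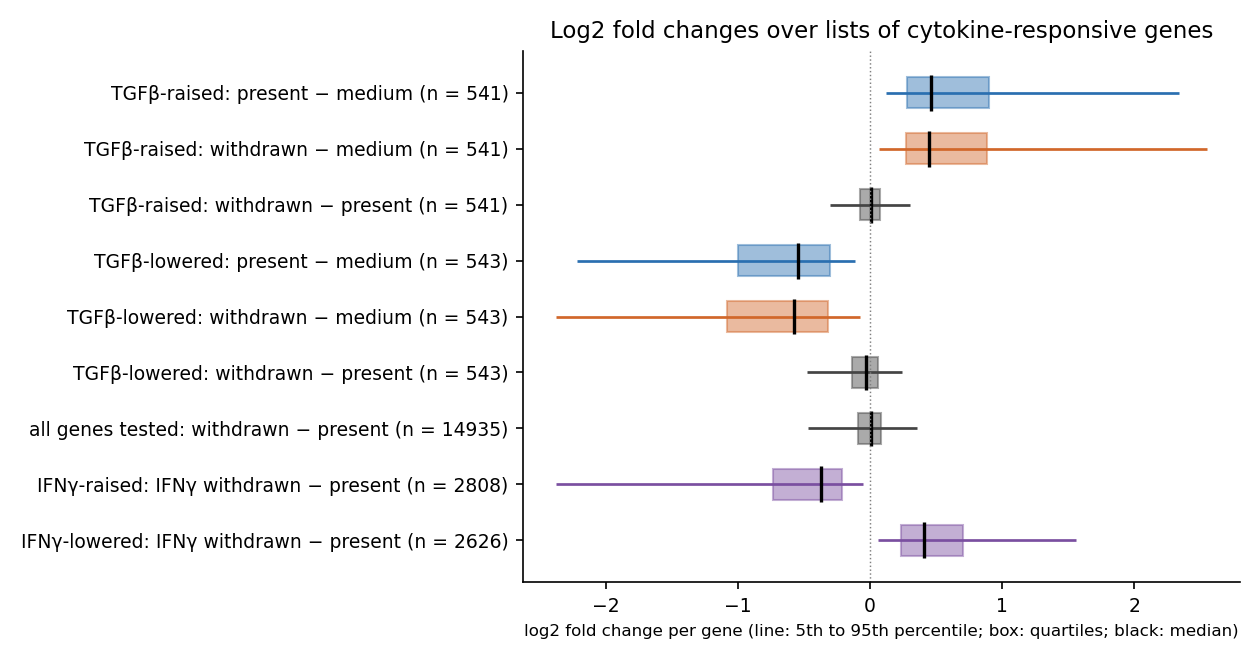
Log2 fold changes per gene (x axis) for lists of cytokine-responsive genes (rows), with the median as a black bar, quartiles as a box and the 5th to 95th percentile as a line. The TGFβ-raised genes centre on 0.459 with TGFβ present and 0.448 with it withdrawn, and their withdrawn minus present values on 0.00831, while IFNγ-raised genes centre on -0.375 when IFNγ is withdrawn.

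Genes that TGFβ raises strongly stayed high after it was washed away. Genes named here and below as examples from lists, beyond a list of 34, were picked with their values known. Mmp12, a secreted elastase of the metalloproteinase family (ENSMUSG00000049723, GRCm38 chr9:7344381-7369499), stood at 27.1, 24.4, 29.6 and 26.8 CPM in the withdrawn libraries of 2, 6, 12 and 24 h and at 20.4, 19.8, 19.9 and 23.2 CPM in the present libraries. Medium libraries held 1.51, 4.80, 1.28 and 1.27 CPM. All 4 withdrawn values lay above all 4 present values, as for 0.971% of the tested genes, and the log2 difference was 0.39 ± 0.25 (SE), adjusted p = 0.865 in edgeR. Fbln2, the matrix glycoprotein fibulin 2 (ENSMUSG00000064080, chr6:91212455-91272540), was at 125, 135, 225 and 251 CPM without and 112, 108, 163 and 147 CPM with TGFβ, and at 26.2, 18.7, 25.8 and 27.0 CPM in medium. It was higher in the withdrawn library of every pair, with overlapping arms, a log2 difference of 0.45 ± 0.18 and an adjusted p of 0.652 (unadjusted p = 0.0192, edgeR). Its log2 rise over medium was 2.42 with TGFβ present and 2.87 with TGFβ withdrawn, and both passed the test. Tnnt2, the cardiac form of troponin T, was at 446.6 ± 39.0 CPM (SD, n = 4) in the withdrawn and 445 ± 43.3 CPM in the present arm, both far above 152 ± 8.53 CPM in medium. Its log2 difference was 0.01, with a 95% interval from -0.18 to 0.21.

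Adhesion receptors and protease inhibitors also stayed above medium in both arms. Itga2, the integrin α2 chain of a collagen receptor, held 91.3, 76.0, 169.5 and 176 CPM without and 79.0, 68.7, 142 and 98.8 CPM with TGFβ, against 26.1, 4.97, 29.5 and 33.4 CPM in medium. It was higher in all 4 withdrawn libraries of the pairs, with overlap between the arms, at a log2 difference of 0.37 ± 0.27 (adjusted p = 0.890, edgeR). Itgb3, the integrin β3 chain, was at 152 ± 9.87 and 142.5 ± 9.56 CPM (SD, n = 4), about 1 log2 unit above its medium level in both arms. Ctla2a, a cathepsin inhibitor whose counts may be shared with its close relative Ctla2b, was at 6.35 ± 1.63 and 6.12 ± 1.22 CPM against 0.528 ± 0.202 CPM in medium. Tfpi2, a secreted protease inhibitor, was at 7.90 ± 1.87 and 6.85 ± 0.895 CPM against 0.557 ± 0.420 CPM. The intervals of these 3 differences reached at most 0.65 log2 units from 0. Ccn2, the matricellular protein CTGF, was at 1.05, 1.01, 3.27 and 5.40 CPM without and 2.34, 1.17, 3.13 and 4.42 CPM with TGFβ, and at 0.600 ± 0.368 CPM in medium.

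**Figure D2:**
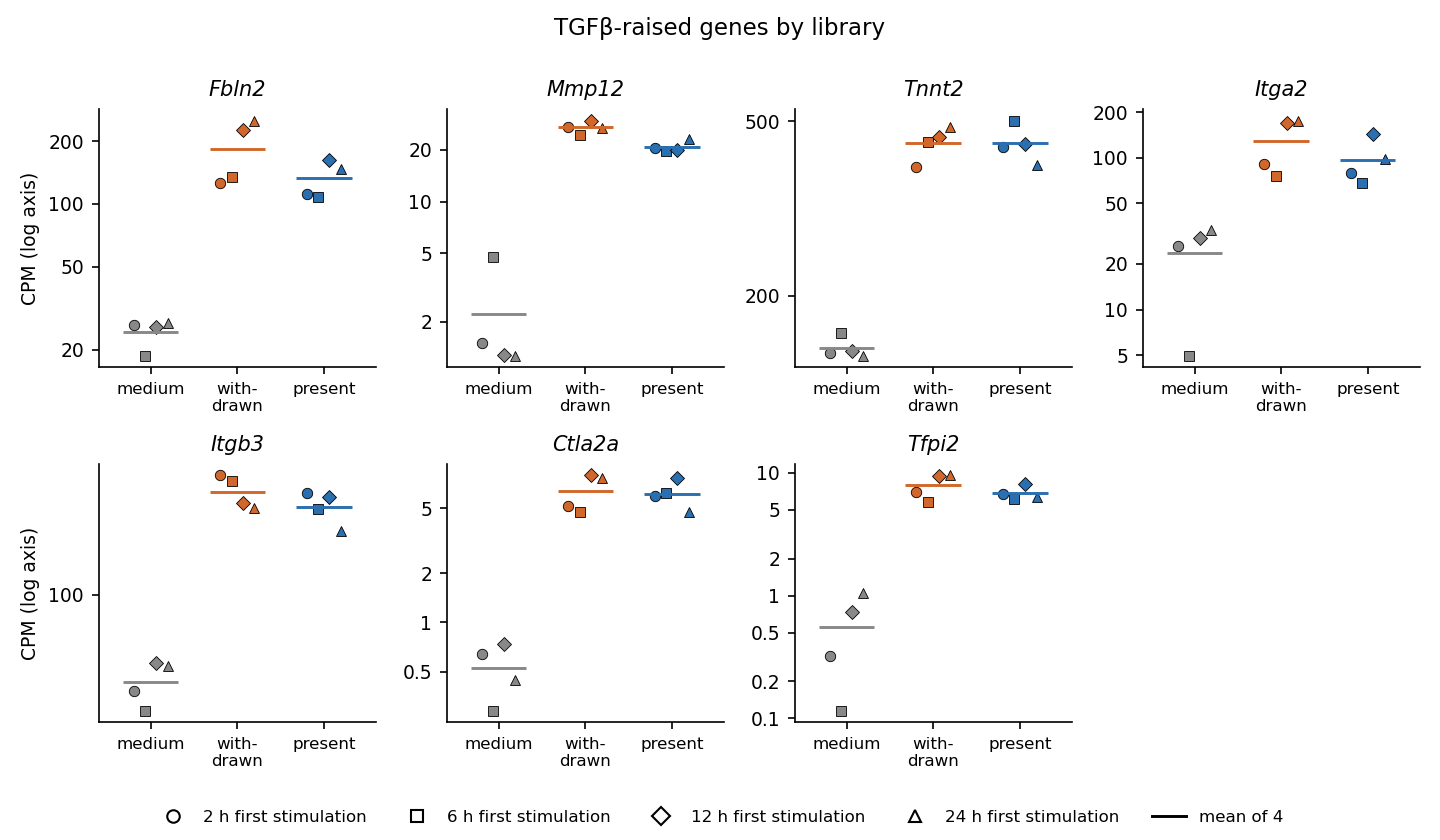
CPM (log axis) of 7 TGFβ-raised genes in each medium, withdrawn and present library, with markers for the duration of the first stimulation and a line at the mean of 4. In Mmp12 the withdrawn libraries (24.4 to 29.6 CPM) sit just above the present ones (19.8 to 23.2 CPM), and in all 7 genes both arms sit above medium.

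A list of 26 textbook TGFβ target genes, 23 of them tested, had a median difference of -0.06, and of 0.118 with the label number of the libraries as a covariate (see the genes of lowest p). Against medium 11 were called higher and 4 lower with TGFβ present, and 8 higher and 4 lower with TGFβ withdrawn. Over all tested genes 11.7% were called higher and 11.6% lower with TGFβ present, and 14.5% each after withdrawal. Fn1, the matrix protein fibronectin, was at 11670 ± 2281 CPM with and 12820 ± 1835 CPM without TGFβ (SD, n = 4), against 7105 ± 2126 CPM in medium, and rose in both. Id1, an inhibitor of basic helix-loop-helix factors, fell in both arms, by 1.08 log2 units with TGFβ present and by 0.96 with TGFβ withdrawn. The Id1 values were 10.04, 7.76, 7.74 and 7.41 CPM without and 8.98, 8.32, 7.12 and 6.02 CPM with TGFβ. The smooth-muscle genes Acta2 and Tagln, raised by TGFβ in fibroblasts, were at or below 0.154 CPM in all 8 libraries and were not tested.

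Genes that TGFβ keeps low stayed low. Plk2, a kinase of the polo family, was at 38.2, 47.9, 28.9 and 24.8 CPM without and 32.6, 42.8, 22.0 and 20.4 CPM with TGFβ, against 62.6, 124.5, 47.2 and 45.2 CPM in medium, and fell in both arms. Sod3, the extracellular superoxide dismutase, was at 1.66, 1.20, 0.344 and 0.287 CPM without and 1.31, 2.85, 0.461 and 0.680 CPM with TGFβ, against 6.13, 51.8, 4.14 and 5.70 CPM in medium. The high medium value is that of the 6 h library that stood apart. Apod, a lipid carrier, the water channel Aqp5 and the lubricin gene Prg4 likewise fell in both arms, and their withdrawn minus present differences of -1.14, -0.29 and -0.73 log2 units had adjusted p from 0.848 to 0.9496 (edgeR). Without that medium library these genes were still called lower in both arms, and the log2 changes with TGFβ present and withdrawn went from -3.35 and -3.84 to -2.30 and -2.81 for Sod3, from -3.11 and -3.39 to -2.21 and -2.48 for Aqp5, and from -3.42 and -4.15 to -1.60 and -2.26 for Prg4. Vegfa, the endothelial growth factor, was at 1448 ± 157 CPM without and 1517 ± 184 CPM with TGFβ (SD, n = 4), Timp1, an inhibitor of metalloproteinases, at 197 ± 57.1 and 212 ± 74.7 CPM, and Ccnd1, cyclin D1, at 595 ± 186 and 609.9 ± 171 CPM. None of these last 3 was called lower than medium in either arm. Timp1 was called higher than medium in both, by 0.77 log2 units with TGFβ present and 0.67 after withdrawal. Vegfa was called higher with TGFβ present, by 0.32, and Ccnd1 was called in neither arm. Without the 6 h medium library Timp1 was called higher only with TGFβ present, and Vegfa in both arms.

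Fast SMAD-driven and feedback genes lay mostly below their level with TGFβ present, though none passed the adjusted threshold. Among 17 SMAD early response genes the median difference was -0.148, 9 were lower in all 4 pairs and 2 higher in all 4 (10.7% and 10.2% of all tested genes), and 3 were lower at an unadjusted p below 0.05: Junb, Snai1 and Sphk1. Among 12 negative feedback genes the median was -0.107, 6 were lower and 0 higher in all 4 pairs, and 3 were lower at an unadjusted p below 0.05: Spsb1, Smad7 and Pmepa1. Over all tested genes 3.66% were lower at that p. Of the early genes 5 were called higher than medium with TGFβ present and 1 with TGFβ withdrawn, while 5 and 6 were called lower. The shares over all tested genes were 11.7% higher and 11.6% lower with TGFβ present, and 14.5% each after withdrawal. The median log2 change of the 17 against medium was -0.0636 with TGFβ present and -0.222 after withdrawal. As a list they thus did not lie above medium in either arm.

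Junb, an AP-1 subunit and one of the first genes that SMADs turn on (ENSMUSG00000052837, chr8:84976910-84978718), stood at 151.5, 109, 139 and 143 CPM without and 186, 145, 165 and 172 CPM with TGFβ. Medium libraries were at 146, 128, 130.4 and 146 CPM, the level of the withdrawn arm. Every withdrawn library lay below its present partner, with a small overlap between the arms. The log2 difference was -0.30 ± 0.07, with an adjusted p of 0.128 (unadjusted p = 0.000174) in edgeR. It was called by DESeq2 (adjusted p = 0.00961) and by edgeR on the 8 libraries alone (adjusted p = 0.0388). Against medium Junb rose by 0.28 log2 units with TGFβ present (adjusted p = 0.00479), and the change was -0.03 with TGFβ withdrawn (adjusted p = 0.805).

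Snai1, a repressor of epithelial genes, showed the same order at lower levels. It was at 24.5, 19.9, 26.7 and 23.6 CPM without and 32.7, 30.4, 28.9 and 25.4 CPM with TGFβ, a log2 difference of -0.31 ± 0.09 (adjusted p = 0.426, edgeR), against 26.3, 17.8, 20.2 and 23.4 CPM in medium. Sphk1, sphingosine kinase 1, was at 2.66, 2.11, 4.07 and 3.79 CPM without and 4.08, 3.96, 4.41 and 4.86 CPM with TGFβ. Both genes were lower in all 4 withdrawn libraries of the pairs, and both rose over medium only with TGFβ present at the adjusted threshold, at log2 changes of 0.42 (Snai1) and 0.98 (Sphk1). Without the 6 h medium library Sphk1 was called higher in the withdrawn arm too, at a log2 change of 0.78 (adjusted p = 0.0108, edgeR). The difference between the arms that would tell those calls apart did not pass its own test.

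Of the 12 feedback genes 4 were called higher than medium in each arm, against 11.7% of all tested genes with TGFβ present and 14.5% after withdrawal. Called lower were 1 and 2, against 11.6% and 14.5%. The medians of the 12 against medium were 0.108 with TGFβ present and 0.0996 after withdrawal. Smad7, which blocks the receptors, was at 46.7, 32.3, 60.1 and 59.1 CPM without and 55.8, 47.2, 71.5 and 66.6 CPM with TGFβ, over 39.9, 37.4, 41.4 and 37.9 CPM in medium. Its log2 rise over medium was 0.61 with TGFβ present and 0.32 with TGFβ withdrawn, both called, and the difference of -0.29 ± 0.11 had an adjusted p of 0.640 (edgeR). Pmepa1, a membrane protein that holds back SMADs, was at 169, 152, 179.6 and 211 CPM without and 207, 205.5, 202 and 228 CPM with TGFβ, rising over medium by 0.76 and, after withdrawal, by 0.52 log2 units. Spsb1, which sends the type II receptor for degradation, was at 175, 161, 195 and 189.5 CPM without and 203.5, 205, 201 and 219 CPM with TGFβ. In Spsb1 all withdrawn values lay below all present values, as for 1.8% of the tested genes, and the log2 difference was -0.20 ± 0.07 (adjusted p = 0.582, edgeR). Skil, a SMAD corepressor, was at 197.5 ± 12.2 and 199.8 ± 9.88 CPM (SD, n = 4), and Ldlrad4, another inhibitor of SMAD activation, had a log2 difference of 0.15. The lower level was thus not shared by all 12 genes.

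Has2, which makes the matrix polysaccharide hyaluronan, was named after its values were seen. It stood at 477.5, 358, 392 and 418 CPM without, 565, 470.5, 459 and 528.5 CPM with TGFβ, and 305, 234.5, 271.5 and 293 CPM in medium. Both arms rose over medium, by 0.57 log2 units without and 0.87 with TGFβ, and the difference of -0.30 ± 0.09 had an adjusted p of 0.426 in the edgeR fit of all libraries and of 0.0342 in that of the 8 alone. Fhl2 and Marcks, chosen likewise, had log2 differences of -0.30 ± 0.09 and -0.31 ± 0.09 and were lower in all 4 pairs. With the label number as a covariate 1 of the SMAD early response genes and 0 of the feedback genes were lower at an unadjusted p below 0.05, in place of 3 and 3, and the list medians were -0.13 and -0.0777. Over all tested genes 621 of 14935 were lower at that p under the covariate. The log2 differences under that covariate were -0.40 for Junb, -0.26 for Snai1, -0.47 for Has2, -0.20 for Smad7, -0.18 for Spsb1, -0.12 for Sphk1, -0.05 for Pmepa1 and -0.03 for Marcks.

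**Figure D3:**
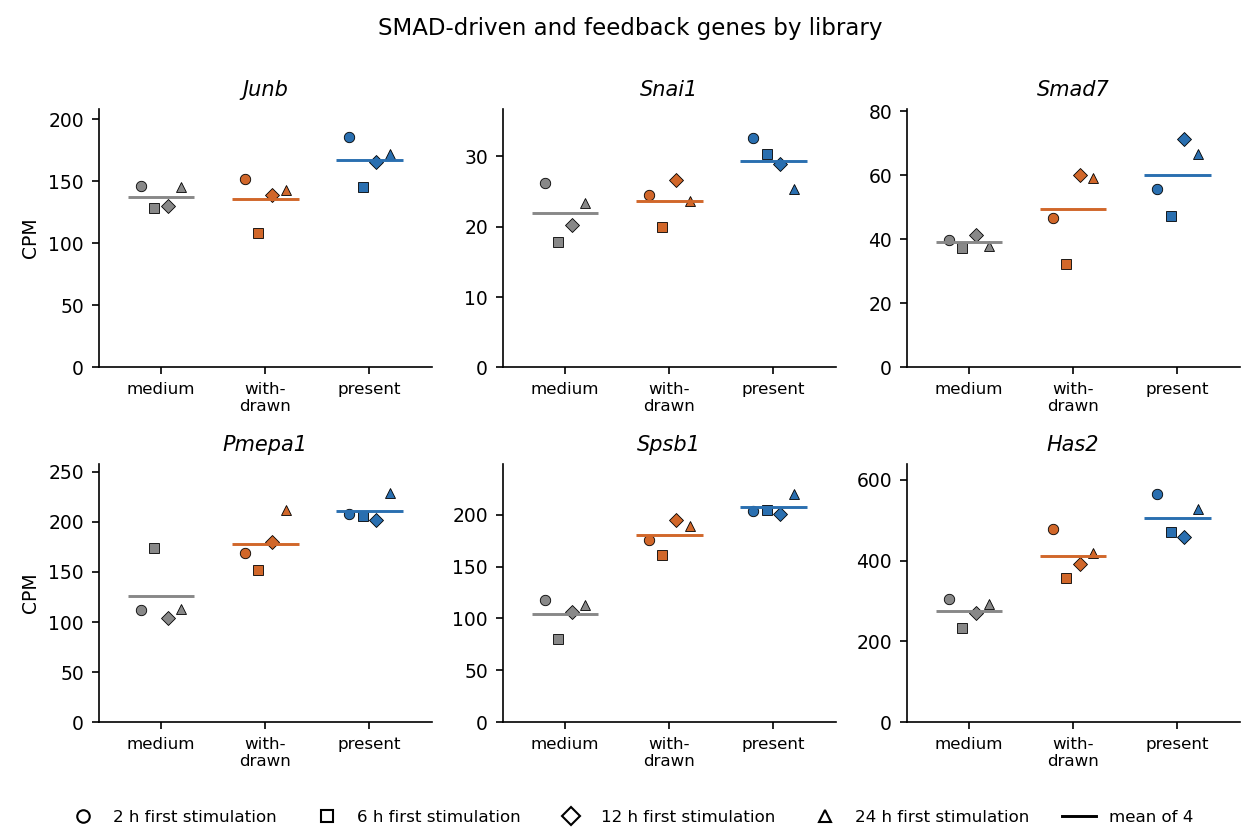
CPM (linear axis from 0) of 6 early response, feedback and matrix genes in each medium, withdrawn and present library, with markers for duration and a line at the mean of 4. The withdrawn value lies below the present value of the same duration in all 4 pairs of each gene, and the Junb mean without TGFβ (135 CPM) is near that of medium (138 CPM).

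Ligands, receptors and SMADs showed small differences. Of 17 tested genes the median difference was -0.0232 and 1, Tgfb3, was lower at an unadjusted p below 0.05, as were 3.66% of all tested genes. Tgfb3, a TGFβ ligand, was at 49.4, 40.6, 43.5 and 38.0 CPM without and 49.5, 49.1, 50.6 and 50.4 CPM with TGFβ, and at 64.3 ± 3.58 CPM (SD, n = 4) in medium. It fell in both arms, by 0.59 log2 units without and 0.36 with TGFβ, and the difference of -0.22 ± 0.07 had an adjusted p of 0.441 (edgeR). Tgfbr1, the type I receptor, fell by 0.45 log2 units with TGFβ present and by 0.44 after withdrawal, and the difference of 0.01 had an interval from -0.18 to 0.19. Tgfb1 was at 56.4 ± 5.00 and 58.6 ± 4.86 CPM, and Smad3 at 63.8 ± 4.20 and 64.8 ± 6.62 CPM.

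Programmes of cell state differed little between the arms. Of 19 tested actin and contraction genes 13 were called higher than medium in each arm (11.7% of all tested genes with TGFβ present and 14.5% after withdrawal). Their median of withdrawn minus present was 0.0135. In all 4 pairs 0 of them were lower and 4 higher, against 10.7% and 10.2% of all tested genes. Actg1, cytoplasmic γ-actin, was at 323 ± 72.8 CPM without and 283 ± 70.4 CPM with TGFβ (SD, n = 4), against 208 ± 17.1 CPM in medium. Medians were 0.0166 for 19 collagens, 0.033 for 24 matrix glycoproteins and proteoglycans, 0.0249 for 14 integrins, -0.0232 for 28 DNA replication and G1/S genes, 0.0459 for 25 mitosis genes and 0.0075 for 16 MAPK output genes. At an unadjusted p below 0.05 these 6 lists held 0 lower members and 4 higher ones, Etv1 and Etv5 of the MAPK output, Ccnd2 of the G1/S genes and Fbln2 of the glycoproteins. The list of 18 genes of epithelial-mesenchymal transition had a median of 0.000415, with 3 members lower at that p, Snai1, S100a4 and Cdh1, and 0 higher. Over all tested genes 3.66% were lower and 2.55% higher at that p. Among 21 metalloproteinases and inhibitors, Timp2, an inhibitor of metalloproteinases, was at 166.5, 155, 182.5 and 129 CPM without and 229, 251, 201 and 219 CPM with TGFβ, without overlap, a log2 difference of -0.50 ± 0.18 (adjusted p = 0.558, edgeR). Adam12, a membrane metalloproteinase, was higher without TGFβ in 3 of 4 pairs, at 0.853, 0.959, 2.41 and 4.31 against 0.979, 0.558, 1.43 and 1.36 CPM. Gapdh, often used as a reference gene, was at 88.9 ± 7.06 against 99.7 ± 2.88 CPM, a log2 difference of -0.17 ± 0.06 (adjusted p = 0.579, edgeR), while 12 reference genes had a median of 0.00927.

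Lists of interferon-type genes had lower medians without TGFβ in the pairs of 6, 12 and 24 h, the lowest at 24 h. Over 36 genes of the type I interferon antiviral list the median log2 difference of withdrawn minus present was -0.0618, -0.203, -1.18 and -3.24 in the pairs of 2, 6, 12 and 24 h. Over 17 GBP and IRG GTPases, which attack vacuoles of intracellular microbes and, like the H2 genes, have close copies that could share reads, it was 0.0425, -0.418, -1.12 and -3.11, and over 23 genes of MHC class I antigen presentation -0.104, -0.261, -0.274 and -1.07. In the fit over all pairs the medians were -0.536, -0.511 and -0.304, and 0 members of these lists passed an adjusted or unadjusted p of 0.05. Of the antiviral genes 27 were lower in all 4 pairs, and of the MHC class I genes 16, against 10.7% of all tested genes. The slope with duration had an unadjusted p below 0.05 in 29 of 36 antiviral genes, 10 of 17 GTPases and 4 of 23 MHC class I genes, against 3.03% of all tested genes, and in 0 at the adjusted threshold. Without the withdrawn library of 24 h the fitted medians of the antiviral, GTPase and MHC class I lists were -0.173, -0.0864 and -0.0722. With the label number as a covariate they were -1.71, -1.31 and -0.563. Lower at an unadjusted p below 0.05 were then 27, 5 and 3 genes, against 621 of 14935 over all tested genes. That covariate is fitted within groups, where the number changes with duration, so these values cannot separate number from duration (see the genes of lowest p).

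Ifit1, which binds foreign RNA caps and belongs to a family of close copies, was at 336.5, 244, 42.8 and 28.2 CPM without and 344.5, 292, 66.1 and 166 CPM with TGFβ, against 524, 437, 553 and 572 CPM in medium. Oas2, a sensor of double-stranded RNA, was at 55.4, 38.7, 0.917 and 0.689 CPM without and 57.8, 44.9, 4.51 and 9.37 CPM with TGFβ, against 112.5, 85.9, 135 and 136 CPM in medium. In both genes the libraries of 12 and 24 h were low and those of 2 and 6 h high in either arm, and the lowest value was the withdrawn library of 24 h. Medium libraries did not show this split. Gbp2, a guanylate binding protein, was at 146, 77.6, 7.74 and 3.33 CPM without and 130.2, 104, 14.9 and 41.8 CPM with TGFβ, and at 191 ± 62.5 CPM (SD, n = 4) in medium. H2-K1, a class I heavy chain, was at 426, 406, 109 and 92.9 CPM without and 494.5, 526, 135 and 159 CPM with TGFβ, and at 651 ± 20.2 CPM in medium. Cd274, the T cell inhibitory ligand PD-L1, was at 16.6, 7.43, 1.03 and 1.32 CPM without and 12.3, 9.55, 2.31 and 6.26 CPM with TGFβ. H2-K1, Gbp2 and Ifit1 fell below medium in both arms at an adjusted p below 0.05 in edgeR, and their difference between the arms did not pass the test (adjusted p = 0.906, 0.929 and 0.890).

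**Figure D4:**
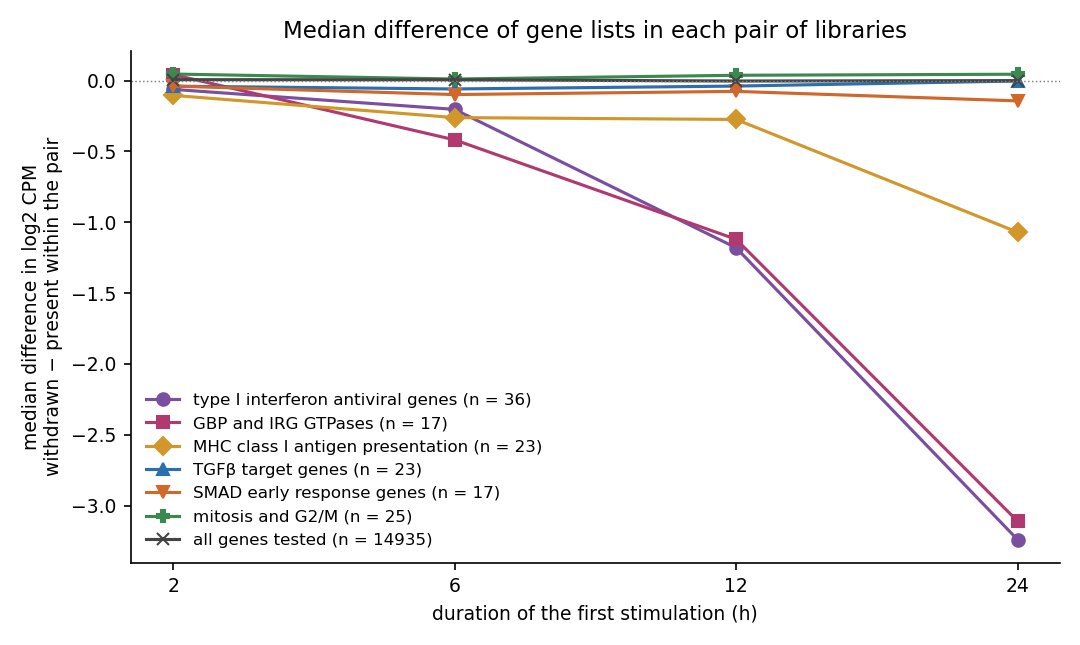
Median difference in log2 CPM, withdrawn minus present (y axis), for 6 gene lists and for all tested genes in each pair of libraries by duration of the first stimulation (x axis, h, evenly spaced). The interferon-type lists drop from near 0 at 2 h to -3.24, -3.11 and -1.07 at 24 h, and the other lists shown stay between -0.143 and 0.0466.

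For IFNγ, withdrawal was followed by a different outcome, and the difference between the cytokines was tested directly. IFNγ withdrawn against IFNγ present called 6209 of 14935 genes (41.6%) in edgeR, 3105 higher and 3104 lower. The IFNγ arms differ in label number too, at 2, 6, 10 and 14 withdrawn and 24, 27, 21 and 20 present. The part of label number in IFNγ withdrawal was not tested. Lists of IFNγ-responsive genes came from TGFβ followed by IFNγ against TGFβ followed by medium, the withdrawn libraries of this report. Genes raised by IFNγ in those TGFβ-pretreated cells (2808) had a median of -0.375 when IFNγ was withdrawn, and 2172 of them were called lower. Genes lowered there (2626) had a median of 0.409 with 1967 called higher. The effect of TGFβ withdrawal minus that of IFNγ withdrawal passed the adjusted threshold in 3527 genes (23.6%), 1738 above and 1789 below 0, and without the duration factor in 2178. Without the libraries of 12 or 24 h it did so in 1921 or 1814. In the fit of all libraries that difference passed in 16 of 24 genes of the ATF4 and unfolded protein response list (see other observations). It also passed in 14 of 19 collagens, 11 of 17 NF-kB targets, 10 of 17 GTPases and 5 of 6 fibroblast and endothelial markers. Low counts were 2 of 36 type I interferon antiviral genes, 2 of 25 mitosis genes, 0 of 3 keratinocyte and 0 of 2 leukocyte markers. Cd33, a sialic acid receptor, had a log2 difference of -0.18 ± 0.15 for TGFβ and of 3.07 for IFNγ, and the gap of -3.26 ± 0.27 had an adjusted p of 4.54e-08. Megf10, a receptor for the uptake of dying cells, stood at 68.0 ± 4.10 CPM without and 66.7 ± 3.85 CPM with TGFβ (SD, n = 4) and at a log2 difference of 2.83 for IFNγ. Irf1, the transcription factor at the head of the IFNγ response, had a log2 difference of -0.29 for TGFβ and -3.71 for IFNγ. Spsb1 and Snai1 differed in sign between the withdrawals, at -0.20 and -0.31 for TGFβ and 0.77 and 0.41 for IFNγ, and both gaps passed the test (adjusted p = 1.53e-06 and 0.000454).

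Leaving out 4 predicted genes that rank among them (Gm6140, Gm7832, Gm7332 and Gm7065), the 12 genes of lowest p in the comparison belonged to none of the 36 lists. They are named after their values were seen: Ube2m, Btg3, Zmynd19, Samd1, Gsk3a, Hnrnpa0, Gnb1, Hnrnpd, Ppp1r14b, Cebpb, Otulin and Scarna17. Ube2m, the enzyme that attaches NEDD8 (ENSMUSG00000005575, chr7:13035120-13038275), was at 125, 111, 132 and 119 CPM without and 234, 279, 232 and 161 CPM with TGFβ. The arms did not overlap, and the log2 difference of -0.87 ± 0.15 had an adjusted p of 0.0513 (edgeR). Medium libraries were at 265.3, 271, 265.0 and 143.5 CPM. Btg3, an antiproliferative factor, was at 30.0, 29.2, 29.3 and 25.4 CPM without and 55.7, 60.2, 55.4 and 36.3 CPM with TGFβ, a log2 difference of -0.85 ± 0.15, and at 60.5, 67.1, 62.2 and 34.3 CPM in medium. Cebpb, a leucine zipper transcription factor, was at 131 ± 31.2 and 248 ± 74.2 CPM (SD, n = 4).

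Each library carries a number in its label, which runs from 1 to 29 and whose meaning the labels do not give. The withdrawn libraries are numbers 4, 8, 12 and 16 and the present libraries 25, 28, 22 and 19. Among the other 21 libraries, the 13 numbered up to 17 held 121 to 170.1 CPM of Ube2m and the 8 numbered from 18 held 204 to 346 CPM. The ranges were also apart for Btg3, Samd1, Gsk3a and Otulin, lower up to 17 in each, and they overlapped in the other 7 of the 12 genes, for example at 717 to 1079 and 886 to 1164 CPM for Hnrnpd. In all 12 the median was lower in the libraries numbered up to 17. The boundary at 17 was chosen after the values were seen. For Btg3 the ranges were 26.6 to 42.0 and 46.7 to 68.1 CPM, for Samd1 66.4 to 104 and 109.6 to 124 CPM, and for Otulin 15.6 to 31.6 and 33.6 to 44.6 CPM. The medium library of 24 h, number 17, was at 143.5 CPM of Ube2m, and the other 3 medium libraries at 265 to 271 CPM. With the label number as a covariate the log2 differences were -0.36 for Ube2m, -0.40 for Btg3, -0.37 for Zmynd19 and -0.20 for Samd1. The covariate was fitted within the groups, on top of the duration factor, and within the groups the number changes with duration. Differences under it therefore cannot separate label number from changes with duration that differ between the groups. Within the 8 libraries the arm and the label number cannot be told apart. Nor do the other libraries separate label number from the order of stimuli. Numbers 1 to 16 all had a cytokine in the first step, and numbers 17 to 29 all had medium first. Only number 17 had medium first and lay in the lower range of numbers. Genes lower in the withdrawn arm at an unadjusted p below 0.05 had a median GC content of 52.4% and a median longest transcript of 2037 nucleotides, against 46.2% and 4314 for those higher and 49.3% and 3018 over all tested genes. The part of GC content and length in the differences was not tested. With both corrected for, the fit called 0 genes and 817 had an unadjusted p below 0.05.

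**Figure D5:**
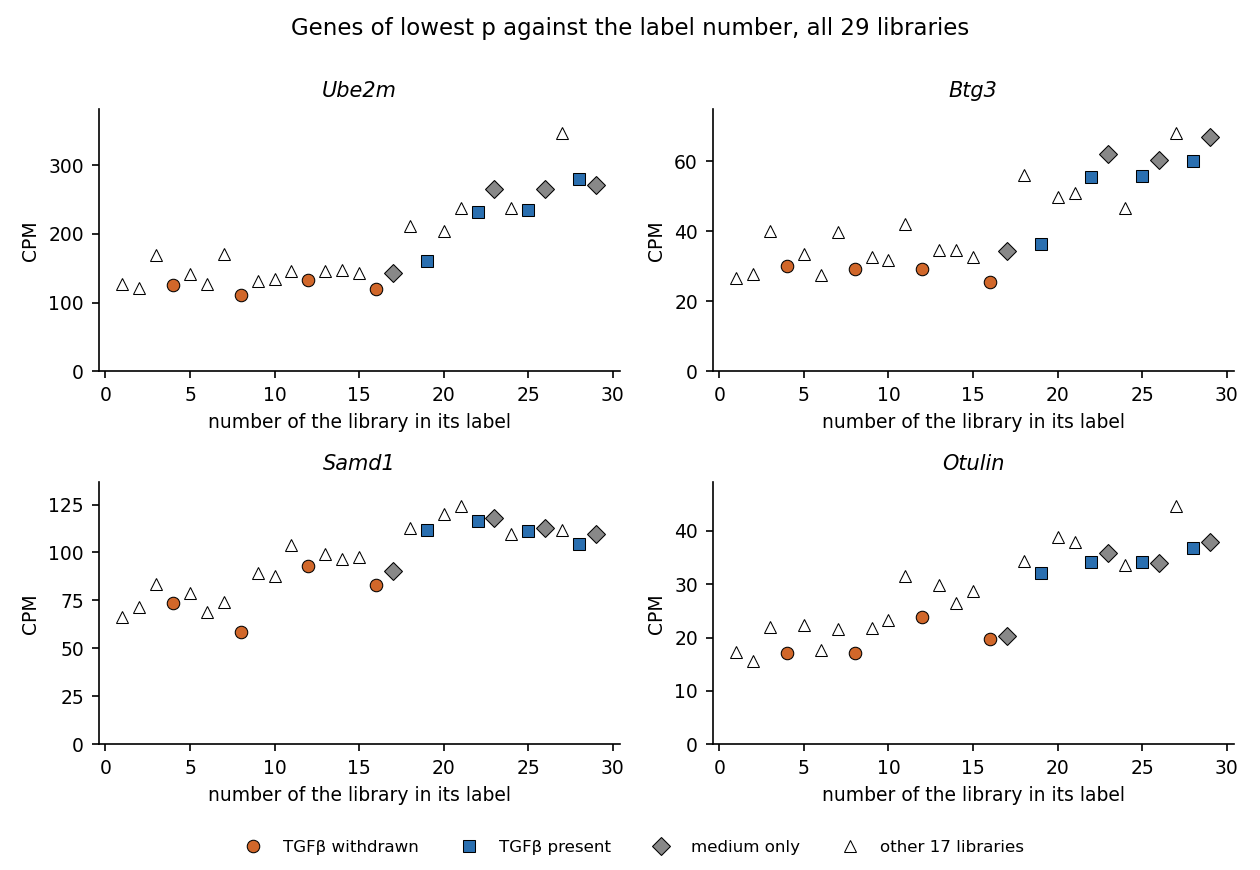
CPM of Ube2m, Btg3, Samd1 and Otulin (y axes from 0) against the number of the library in its label (x axis) in all 29 libraries, with the withdrawn, present and medium libraries filled and the other 17 open. Withdrawn libraries lie among the low values of numbers up to 17, and the medium library numbered 17 lies with them at 143.5 CPM of Ube2m.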

How the data were processed

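Stranded mRNA libraries of NMM cells were prepared from RNA with an integrity number over 8, per the labels' protocols. The authors deposited whole-number read counts per Ensembl gene, not normalized. Per the submitters' processing notes, HISAT and the GRCm38 build were used. How reads were counted, and with which strand setting, is not given in the sources used here. Overlapping genes may therefore share reads. The table held 28229 genes, and 0 per-sample columns were left over.

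Counts were fitted with edgeR 4.0.16 (R 4.3.3): filterByExpr at a minimum count of 10, TMM scaling, and a quasi-likelihood model of stimulus sequence plus duration over all 29 libraries with 18 residual degrees of freedom (slopes: 12). The Benjamini-Hochberg adjustment ran over 14935 genes. Log2 CPM used a prior count of 2. SE is the fold change over the root of F. DESeq2 1.42.0 was an alternative. Scripts were tested on simulated data. Replicate numbers are the durations, which the labels share between groups. Deviations from the group means correlated by 0.449, 0.499, 0.439 and 0.371 within the pairs of 2, 6, 12 and 24 h. Libraries of 2 and 6 h, and of 12 and 24 h, also correlated across pairs (0.262 to 0.493). The withdrawn library of 24 h correlated more with the present library of 12 h (0.493) than with its own partner (0.371). The pairing thus rests on the shared durations, and the correlations alone do not give it.

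The comparison, 36 gene lists and 34 named genes were chosen with earlier results of these data known. Further names were the 12 genes of lowest p, clone-named predicted genes left out, and, for the difference from IFNγ withdrawal, 5 called genes at each end with at least 5 CPM. The rule for called genes of the main comparison named none, and 21 more genes were picked after their values were seen. Alternatives covered size factors, tool, filter, duration factor, left-out libraries, GC content and length, and label number. Of the 34 genes, 1 is not reported here.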

Additional observations from a re-analysis of the deposited data

Results flagged for a closer look

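Of 134 groups of 4 values checked in 67 named genes, 3 held a value far from the other 3, where chance would give about 1 in 20. Id1 in the withdrawn library of 2 h was at 10.0 CPM against a median of 7.74 CPM in the other 3. Mitf, the melanocyte transcription factor, was at 10.3 CPM in the withdrawn library of 24 h against 12.9 CPM. Btg3 was at 25.4 CPM in that library against 29.3 CPM.

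Another 10 genes, the 5 at each end among those called, differed between the withdrawal of TGFβ and that of IFNγ in the edgeR test of the difference itself. Lower for TGFβ than for IFNγ, in log2 units ± SE, were Cd33 (-3.26 ± 0.27), Tmem119 (-2.95 ± 0.52), Gxylt2 (-2.84 ± 0.47), Megf10 (-2.81 ± 0.32) and Igfbp5 (-2.66 ± 0.52), with adjusted p from 4.54e-08 to 0.00076. Higher were Cxcl11 (6.08 ± 1.31), Gbp4 (6.35 ± 0.96), Krt16 (7.44 ± 1.46), Cxcl9 (9.86 ± 1.37) and Batf2 (9.88 ± 1.84), with adjusted p from 3.00e-05 to 0.00179. These last 5 had at most 3.61 CPM in any of the 8 TGFβ libraries, and 4 of them at most 1.15 CPM, so their fitted values depend on the prior count.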

How the results depend on the processing

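For withdrawn against present the count of 0 called genes stayed 0 without the replicate block (the duration factor), with GC content and length corrected, and with the label number as a covariate. DESeq2 called 33, RLE size factors 3, no low-count filter 16, the 8 libraries alone 18 and the fit without the 6 h medium library 10. Leaving out 1 pair or 1 library called 0 to 6 genes, 5 without the 24 h pair and 6 without the present library of 24 h. The cause was not tested. The slope with duration had 1 call in DESeq2 and 0 otherwise. The difference from IFNγ withdrawal had 3527 calls, 2178 with no replicate block, and 1814 to 2696 without 1 duration, lowest without 24 h and 2247 without 2 h. The TGFβ response in IFNγ-pretreated cells had 1084 calls and 488 with no replicate block. The medians over TGFβ-raised and TGFβ-lowered genes stayed between -0.0175 and 0.0328 and between -0.0646 and 0.00901. Of 1337 recomputed values of 67 named genes, 52 values in 14 genes passed the threshold under an alternative (11 of the 12 genes of lowest p, and Junb, Has2 and Slc7a11), and 46 changed sign without passing it before or after. Differences of genes under 5 CPM are little constrained at this depth.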

Other observations

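Genes of the ATF4 and unfolded protein response list, which cells use under amino acid and folding stress, had a median of withdrawn minus present of 0.124 over 24 genes, and of 0.00763, 0.0718, 0.205 and 0.192 in the pairs of 2, 6, 12 and 24 h. With the label number as a covariate that median was -0.0438, with 0 members higher at an unadjusted p below 0.05, against 376 of 14935 tested genes. Of the 24 genes, 9 were higher and 4 lower in all 4 pairs, against 10.2% and 10.7% of all tested genes, and 0 passed the adjusted threshold in edgeR. Slc7a11, the cystine transporter, was at 142, 207, 117 and 76.7 CPM without and 120.3, 150.3, 96.8 and 57.2 CPM with TGFβ, higher in every pair at a log2 difference of 0.35 ± 0.14 (adjusted p = 0.652, edgeR). Vldlr, a lipoprotein receptor, was at 48.1, 59.8, 86.1 and 53.2 CPM without and 40.8, 43.3, 71.4 and 36.2 CPM with TGFβ. Atf5 was lower in every pair, at 66.2 ± 4.42 against 79.0 ± 10.5 CPM (SD, n = 4).

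Of 11 mitochondrially encoded transcripts 6 were higher and 0 lower in all 4 pairs, against 10.2% and 10.7% of all tested genes. Their median was 0.158, and 0.463 with the label number as a covariate. For mt-Nd3, a subunit of respiratory complex I, the values were 6.17, 5.08, 9.06 and 9.65 CPM without and 2.67, 2.96, 4.97 and 8.16 CPM with TGFβ, a log2 difference of 0.72 ± 0.21 (adjusted p = 0.426, edgeR).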
